A study of Mus musculus with 6 samples.

Results

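De novo lipogenesis, the making of fatty acids from non-lipid carbon, was followed in inguinal white adipose tissue (iWAT) through 9 genes of the pathway, Acly, Acss2, Acaca, Acacb, Fasn, Me1, Srebf1, Mlxipl and Thrsp. The genes were listed by function, with earlier results of these data known. Every array probe designed on a RefSeq transcript of one of them was taken. These 9 genes are among 21368 genes that carried a RefSeq symbol on the array, and their 17 probes are among 55681 probes. RNA came from 3 WT and 3 Zip13-KO samples on the C57BL/6J background, backcrossed for more than 7 generations and, per the study's legend, 10 weeks old. Zip13-KO mice lack exons 6 to 8 of Slc39a13, the gene of the zinc transporter ZIP13, in every tissue, so a difference in iWAT cannot be assigned to the adipocyte. WT animals were littermates. All mice ate powdered feed because the knockout has few teeth, and whether the arrayed mice had standard or high-fat feed and which sex they were is not given in the sources used here. Xist was not well above background on any array, while Ddx3y and Eif2s3y were on all 6. Each sample was hybridised to 1 array in the 1-colour assay. The labels call the arrays replicates and do not say that each is a separate mouse, so p-values measure the spread between these samples.

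In the pathway, citrate leaves the mitochondrion and is cleaved to acetyl-CoA by ATP citrate lyase (Acly), while acetate enters through acetyl-CoA synthetase (Acss2). Acetyl-CoA carboxylases (Acaca in the cytosol, Acacb at the mitochondrial membrane) make malonyl-CoA, which fatty acid synthase (Fasn) extends to palmitate with NADPH supplied in part by malic enzyme (Me1). The transcription factors SREBP1 (Srebf1) and ChREBP (Mlxipl) drive these genes in response to insulin and glucose, and Thrsp (Spot 14) is a lipogenic protein whose gene responds to thyroid hormone and carbohydrate.

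RefSeq promoters of the GRCm38.p6 build were matched to all 9 genes, as 13 windows because Me1, Srebf1 and Mlxipl have more than 1 annotated start. In the 250 bases before each start, the following letters were searched on both strands. The CCAAT box (CCAAT), the motif bound by NF-Y, a common partner of SREBP1, was in 8 of the 13 windows, from 7 of the 9 genes, and in 33.8% of all 32851 promoter windows. The E-box CACGTG was in 1 member window against 6.02% of all windows, and the sterol regulatory element pattern TCACNCCAC was in 1 against 1.05%. The GC box GGGCGG was in 6 against 32.7%. The stretches below are examples that hold the CCAAT, E-box or sterol element letters, and other CCAAT matches, in Fasn, Me1, Srebf1 and the first Mlxipl start, are not shown. They are read 5′ to 3′ along the transcribed strand with those letters, on either strand, in capitals. The CCAAT match of Fasn overlaps its match on the opposite strand. A match is a description of the letters, not of binding.
Fasn (chr11:120824593-120824622): acggcctcggtgtCCAATTGGtttcgatgt
Acacb (chr5:114165416-114165445): ccagtacaagggaccCCAATagccttgccc
Acss2 (chr2:155517943-155518002): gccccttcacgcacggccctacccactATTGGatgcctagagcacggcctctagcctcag
Thrsp (chr7:97417591-97417650): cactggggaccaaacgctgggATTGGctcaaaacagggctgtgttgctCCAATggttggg
Mlxipl, first start (chr5:135089770-135089829): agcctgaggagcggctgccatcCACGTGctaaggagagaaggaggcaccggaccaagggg
Mlxipl, second start (chr5:135106741-135106770): caggatcagtggttTCACACCACgctcact

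Lipogenic transcripts were higher in Zip13-KO iWAT. In the limma fit over all 15302 genes tested, 8 of the 9 genes were called higher (adjusted p under 0.05 and more than 1.5-fold), 0 were called lower (0 also at an unadjusted p under 0.05), and Thrsp was not called. Of all genes tested, 10.3% were called higher and 8.38% lower. The median log2 fold change of the 9 genes was 1.31, against 0.00 for all genes, and for each of the 9 genes every Zip13-KO array lay above every WT array, which held for 29.2% of all genes. In bulk tissue, more cells of a type and more RNA per cell cannot be told apart.

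**Figure D1:**
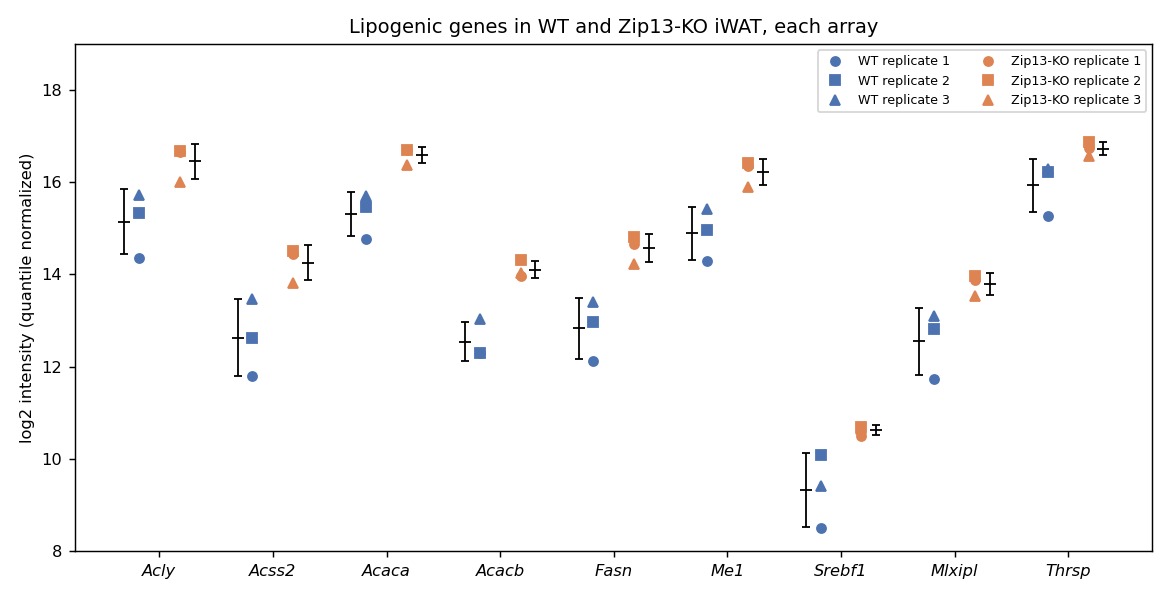
log2 intensity after quantile normalization (y axis) of the 9 lipogenic genes (x axis), with 1 point an array, WT in blue and Zip13-KO in orange, and the mean and SD of the 3 arrays of a genotype as a bar beside the points. No Zip13-KO point of a gene falls among its WT points, and WT replicate 1 is the lowest for all 9 genes. Levels of different genes are not comparable, since each comes from another probe.

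Among the enzymes that make acetyl-CoA, Acly had log2 intensities of 14.37, 15.34 and 15.72 in WT replicates 1, 2 and 3 and 16.67, 16.69 and 16.01 in Zip13-KO replicates 1, 2 and 3. Its WT replicate 1 was the lowest array and its lowest Zip13-KO array lay 0.29 above its highest WT array. The log2 fold change was 1.31 (SE 0.38, n = 3 per genotype), or 2.48-fold, with an adjusted p of 0.0411 in limma. Acss2, which turns acetate into acetyl-CoA, spanned 11.79, 12.62 and 13.46 in WT and 14.45, 14.50 and 13.82 in Zip13-KO. The groups did not overlap, although WT replicate 3 and Zip13-KO replicate 3 were only 0.36 apart. Its log2 fold change was 1.63 (SE 0.43), or 3.10-fold, at an adjusted p of 0.0319.

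For the acetyl-CoA carboxylases, which commit acetyl-CoA to fatty acid synthesis, Acaca was at 14.78, 15.46 and 15.70 in WT and 16.69, 16.70 and 16.38 in Zip13-KO. The groups were 0.68 apart, and the log2 fold change was 1.28 (SE 0.25), or 2.43-fold, with an adjusted p of 0.0134. Acacb, whose malonyl-CoA acts on mitochondrial fatty acid uptake through CPT1, was at 12.29, 12.30 and 13.03 in WT and at 13.97, 14.31 and 14.03 in Zip13-KO. Acacb had the largest gap between the groups of the 9 genes, 0.93. It changed by 1.56 on the log2 scale (SE 0.23), or 2.95-fold, with an adjusted p of 0.00739 in limma, the smallest of the 9.

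Fasn, which extends malonyl-CoA to palmitate, had the largest log2 fold change of the 9 genes. It read 12.12, 12.96 and 13.40 in WT and 14.66, 14.81 and 14.23 in Zip13-KO. The groups were 0.82 apart, and the log2 fold change of 1.74 (SE 0.34), or 3.34-fold, had an adjusted p of 0.0142. Me1, the malic enzyme that yields cytosolic NADPH, read 14.29, 14.97 and 15.43 in WT and 16.36, 16.42 and 15.91 in Zip13-KO. The groups were 0.48 apart, and the log2 fold change of 1.33 (SE 0.30), or 2.52-fold, had an adjusted p of 0.0212 in limma.

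Of the regulators, Srebf1, encoding the sterol-regulated factor that activates lipogenic genes, was at 8.49, 10.09 and 9.40 in WT and 10.50, 10.70 and 10.66 in Zip13-KO. WT replicate 1 was far below the other arrays of its group, and the Zip13-KO arrays were close together. The log2 fold change was 1.29 (SE 0.38), or 2.45-fold, and the adjusted p was 0.0443, close to the threshold. Mlxipl, encoding the glucose-responsive factor ChREBP, was at 11.72, 12.81 and 13.10 in WT and 13.88, 13.97 and 13.52 in Zip13-KO. The groups were 0.42 apart, and the log2 fold change of 1.24 (SE 0.36), or 2.37-fold, had an adjusted p of 0.0421 in limma. Thrsp was at 15.27, 16.23 and 16.29 in WT and 16.75, 16.87 and 16.57 in Zip13-KO. Its arrays did not overlap by genotype, yet its log2 fold change of 0.80 (SE 0.28), or 1.74-fold, did not pass the test (adjusted p = 0.0729).

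WT replicate 1 was the lowest WT array for all 9 genes, which was so for 41.4% of all genes, and Zip13-KO replicate 2 was the highest Zip13-KO array for all 9, which was so for 27.5%. The SD among WT arrays was larger than that among Zip13-KO arrays for all 9 genes, and for 68.9% of all genes. The scanner barcode holds a position number after the slide number, which was read here as the slide column. All 3 WT arrays and Zip13-KO replicate 1 sat in the same slide column by that reading, and Zip13-KO replicates 2 and 3 in the other. Within that column Zip13-KO replicate 1 lay above every WT array for all 9 genes (for 40.2% of all genes), by 0.82 to 1.83 over the WT mean. With the slide column as a term in the limma fit, the genotype effect is that same difference of Zip13-KO replicate 1 from the WT mean. It is therefore not a second estimate. The median of the 9 genes was 1.43 but 0 of the 9 were called. In that fit 0 genes in all were called higher and 7 lower. At an unadjusted p under 0.05 it had 6 of the 9, but the share of all genes at that p is not given here. The number of the 9 genes called fell to 1 without Zip13-KO replicate 1 and to 1 without Zip13-KO replicate 2. It was 4 without Zip13-KO replicate 3, 5 without WT replicate 2 and 8 without WT replicate 1. Of all 15302 genes, 961, 1029 and 1291 were called higher without Zip13-KO replicates 1, 2 and 3. That number was 1674 without WT replicate 2 and 1233 without WT replicate 1, against 1576 with all arrays. Acacb was the only one of the 9 called in both fits that left 1 of them.

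All 17 probes of the 9 genes passed the filter on dim probes. In the fit over all 33033 kept probes, where 8.35% were called higher and 7.13% lower, 13 of the 17 were called higher and 0 lower. Every Zip13-KO array lay above every WT array for 16 of the 17, and for 24.9% of all kept probes. Probes of one gene gave similar log2 fold changes for Acaca (1.28 to 1.69 over 3 probes), Me1 (1.33 to 1.49 over 3 probes), Acacb (1.56 to 1.69 over 2 probes), Acss2 (1.63 to 1.64 over 2 probes) and Acly (1.31 to 1.58 over 2 probes). A gene was represented by its brightest probe. The single Srebf1 probe had an adjusted p of 0.0507 here, the dimmer Acly probe 0.0603, and Thrsp 0.0817. The exception in level was the second Mlxipl probe, designed on the same RefSeq transcript as the first. It read 11.88, 11.90 and 11.93 in WT and 11.81, 11.83 and 11.78 in Zip13-KO, and its log2 fold change was -0.10 (SE 0.07, adjusted p = 0.347 in limma). It varied by an SD of 0.06 over the 6 arrays, where the median SD of the 2118 kept probes within 0.5 log2 units of its level was 0.18, and 5.05% of them had a smaller SD. The probes' positions on the transcript are not given here. On the mean of both probes, Mlxipl had a log2 fold change of 0.57 and was not called.

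**Figure D2:**
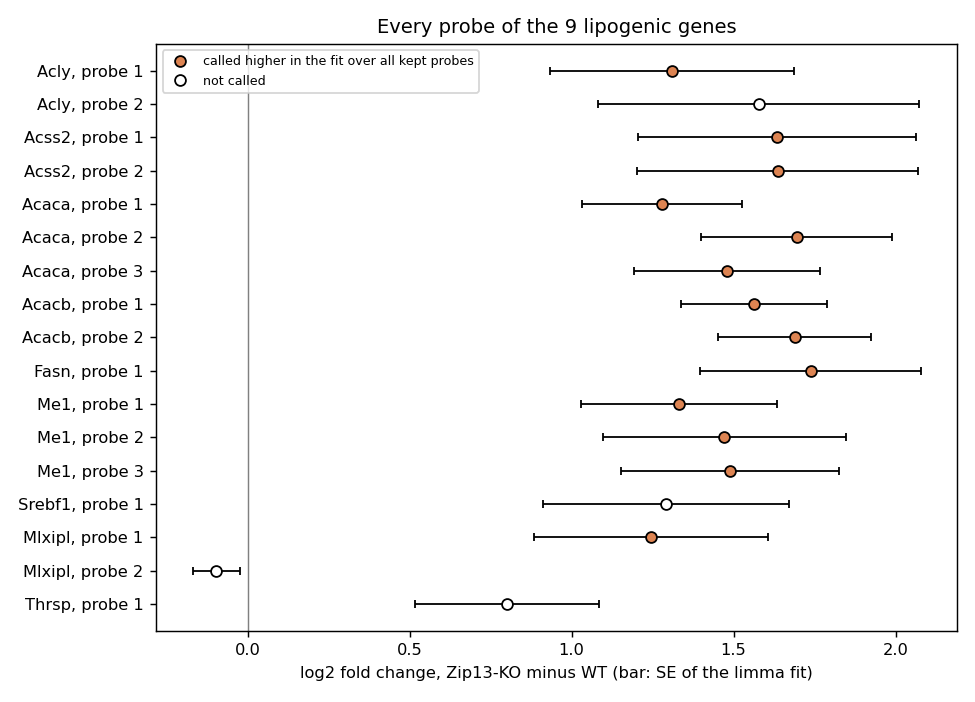
log2 fold change of Zip13-KO over WT (x axis) for each of the 17 probes (y axis, numbered by level within a gene), with the SE of the limma fit over all kept probes as the bar and filled points for the 13 probes called higher. All probes lie right of 0 except the second Mlxipl probe.

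The 6 pairs of related genes were set against each other within each array. Acacb minus Acaca differed between genotypes by 0.28 on the log2 scale (exact permutation test, two-sided, p = 0.3), so the carboxylases were not shown to differ. Of the others, 4 reached the smallest p that 3 against 3 arrays allow, 0.1, each with an adjusted p of 0.15 over the 6 pairs. These were Srebf1 minus Srebf2, the factor chiefly of cholesterol synthesis, at 1.42, and Mlxipl minus Mlxip, its relative that binds the same partner, at 1.52. On the mean of each gene's kept probes these differences were 2.13 and 0.80, since the probes of Srebf2 and of Mlxipl disagreed. Acss2 minus Acss1, the mitochondrial synthetase, differed by 1.62 and Me1 minus Me2, a mitochondrial malic enzyme, by 1.90. Thrsp minus its relative Mid1ip1 differed by 0.35 (p = 0.4, exact permutation test).

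Of the 7 relatives tested, only Me3, another mitochondrial malic enzyme, was called higher, at 1.54 (SE 0.16, adjusted p = 0.00478). It read 7.08, 6.66 and 6.64 in WT and 8.23, 8.21 and 8.56 in Zip13-KO, with no overlap. Acss3 (0.51), Mid1ip1 (0.45), Acss1 (0.01), Srebf2 (-0.13) and Mlxip (-0.28) were not called on their brightest probes. The second kept probe of Srebf2 read 9.46, 8.92 and 9.22 in WT and 7.49, 7.38 and 8.06 in Zip13-KO, a log2 fold change of -1.56 (SE 0.22, adjusted p = 0.00976 in the limma fit over probes). Its groups did not overlap, while those of the first probe did, and on the mean of both Srebf2 was called lower, at -0.84. Me2 was at -0.56 with an adjusted p of 0.00656, and so did not pass the fold threshold. The relatives' median log2 fold change was 0.01.

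**Figure D3:**
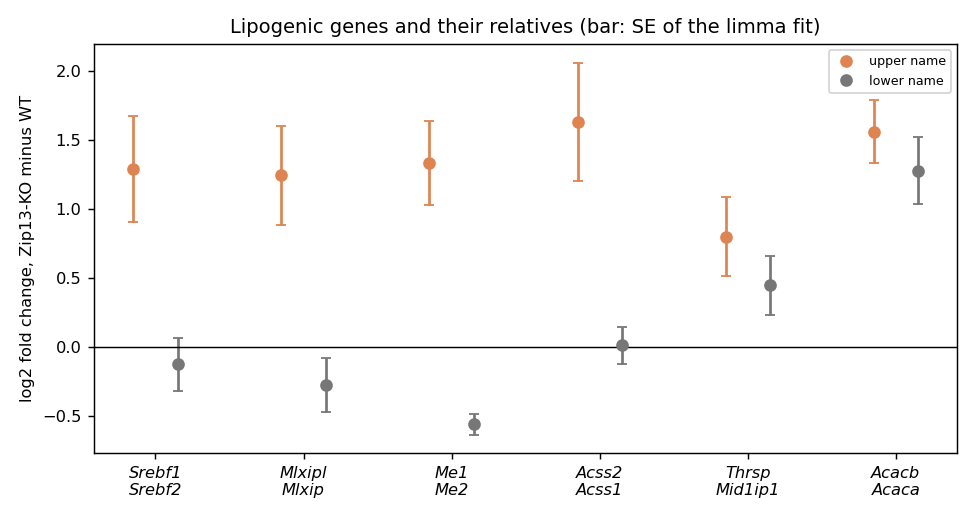
log2 fold change of Zip13-KO over WT (y axis, bar is the SE of the limma fit) for the brightest probe of each gene in 6 pairs of related genes (x axis), the upper name in orange and the lower name in grey. The orange point is above its grey partner in every pair, by the smallest amount for Acacb and Acaca.

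The other genes of the pathway were described by 7 lists with 72 genes tested. Of these 29 were called higher and 0 lower by limma, against 10.3% and 8.38% of all genes, and the median log2 fold change was 0.60. At an unadjusted p under 0.05, 3 were lower, and the share of all genes at that p is not given here. In substrate and NADPH supply 9 of 10 genes were called higher, against the same 10.3%, with a median of 1.11. Slc25a1, the mitochondrial citrate carrier that exports citrate for Acly, rose by 1.66 (SE 0.31, adjusted p = 0.0127), and the pyruvate dehydrogenase subunits Pdha1 and Pdhb rose by 1.29 and 1.26. The pentose phosphate enzymes G6pdx and Pgd, also sources of NADPH, rose by 0.60 and 0.74, while Idh1, which makes NADPH from isocitrate, was at 0.51 and missed the fold threshold.

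Among genes that elongate, desaturate and esterify the product, 8 of 13 were called higher (median 0.99), against 10.3% of all genes. Elovl6, which elongates palmitate to stearate, had the largest change of any gene in the 7 lists, 2.41 (SE 0.40, adjusted p = 0.00992). It read 11.68, 12.04 and 13.06 in WT and 14.82, 15.02 and 14.14 in Zip13-KO, with no overlap. The desaturase Scd3 rose by 1.62 and the glycerol-3-phosphate acyltransferase Gpam by 1.32. At the lower end, Fads1 rose by 0.59, Elovl5 was at 0.42 and Scd4 at -0.19, neither called.

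Mitochondrial fatty acid synthesis, a separate pathway that makes lipoate, had 4 of 7 genes called higher, against 10.3% of all genes. All 7 were above 0, as were 7643 of all 15302 genes tested. Acsf3, which makes malonyl-CoA in mitochondria, read 10.79, 11.37 and 11.16 in WT and 12.16, 12.35 and 12.13 in Zip13-KO. Ndufab1, the mitochondrial acyl carrier protein, read 9.10, 9.28 and 9.52 in WT and 10.25, 10.46 and 10.18 in Zip13-KO. Both rose without overlap between genotypes, and Cbr4 rose by 0.86 and Mecr by 0.85. Mcat (0.57), Hsd17b8 (0.49) and Oxsm (0.47) did not pass the fold threshold. Among SREBP2 targets of cholesterol synthesis, whose list median was 0.76, Hmgcs1 rose by 0.95 and Fdft1 by 0.91. The 3 highest values, Lss (1.23), Idi1 (1.11) and Fdps (1.07), had adjusted p of 0.0527, 0.0609 and 0.0626 and were not called. At the low end Stard4 was at -0.15 and Mvd at 0.17, neither called.

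In the regulators around SREBP and ChREBP, 2 of 13 genes were called higher, where 10.3% of all genes were. Insig1, which holds SREBP in the endoplasmic reticulum and is itself an SREBP target, rose by 1.53 (SE 0.26, adjusted p = 0.01). The coactivator Ppargc1b rose by 1.19. Rxra was at 0.54, and at the low end Fbxw7 was at -0.35, Usf1 at -0.32 and Mbtps2 at -0.20, none called. In the list of enzyme modification and malonyl-CoA control, 2 of 10 were called higher against the same 10.3%, Prkaa2, a catalytic subunit of the AMP-activated kinase that inhibits the carboxylases, by 1.09 and malonyl-CoA decarboxylase Mlycd, which consumes malonyl-CoA, by 0.81. Aasdhppt, which loads Fasn with its prosthetic group, was at 0.52 and not called, and Prkab1 (-0.05), Prkab2 (-0.18) and the biotin ligase Hlcs (-0.19) were not called either.

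**Figure D4:**
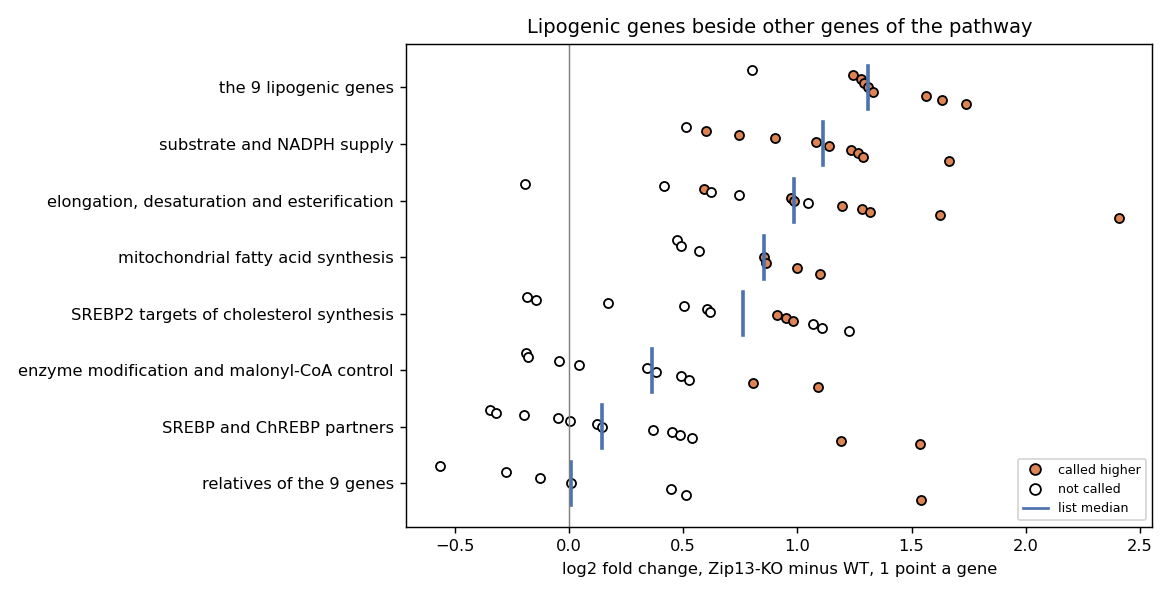
log2 fold change of Zip13-KO over WT (x axis) for every gene tested in the 9 lipogenic genes and the 7 other lists of the pathway (y axis), with filled points for genes called higher and a blue line at the list median. Medians run from 1.31 for the 9 genes to 0.01 for their relatives.

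The 5 other genes whose centred log2 profile over the 6 arrays had the smallest root-mean-square difference from the mean profile of the 9 genes were Gbe1 (0.04), which branches glycogen, Pdhb (0.08), Agpat2 (0.09), Svip (0.10) and Trarg1 (0.10), a protein of the GLUT4 vesicle. Of the 9 genes themselves, Me1 was nearest to that profile, at 0.07, and Srebf1 farthest, at 0.33.

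Adipocyte markers were also higher in Zip13-KO on average. Of 10 such markers 3 (Pparg, Plin1 and Lipe) were called higher, against 10.3% of all genes, with a median log2 fold change of 0.56. Their changes ran from 0.03 for Cfd, which read 17.39 to 17.49 over the 6 arrays, to 1.13 for Pparg. Whether so high a level limits a rise was not tested. Relative to the WT mean, the markers averaged -0.47, 0.28 and 0.19 in WT and 0.67, 0.57 and 0.58 in Zip13-KO. WT replicate 1 was thus low for the markers and the 9 genes, but the order of the other arrays differed. Zip13-KO replicate 2 was the highest Zip13-KO array for all 9 genes and, by little, the lowest for the markers. WT replicate 3 was the highest WT array for 8 of the 9 genes, and WT replicate 2 for the markers. The summed normalized intensity of the markers was 580342 to 736523 in WT and 832476 to 863352 in Zip13-KO. With the mean of the markers subtracted within each array, a scaling chosen after the data were seen that shifts the median of all genes to -0.61, the median of the 9 genes was 0.70 and 4 (Acacb, Acss2, Fasn and Me1) were called higher, where 1.22% of all genes were called higher and 37.2% lower. On that scale the differences ran from 0.20 for Thrsp to 1.13 for Fasn, and the genotypes overlapped for Acly, Acss2 and Thrsp.

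**Figure D5:**
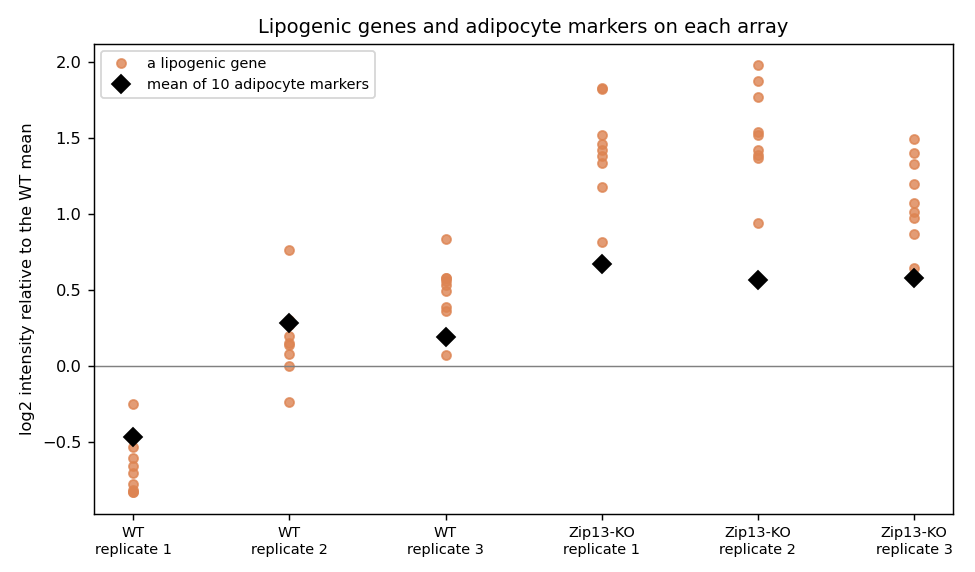
log2 intensity relative to the WT mean (y axis) on each array (x axis), with an orange point for each of the 9 lipogenic genes and a black diamond for the mean of 10 adipocyte markers. In each Zip13-KO array all 9 points lie above the diamond, and on WT replicate 1 both are at their lowest.

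Other markers shifted too, and their part in the lipogenic result was not tested. Of all genes 10.3% were called higher and 8.38% lower, and shares at an unadjusted p are not given here. All 8 brown and beige markers were called higher, with Ucp1 at 5.16, and their summed intensity was 36019 to 57995 in WT and 161294 to 250679 in Zip13-KO. Of 8 macrophage markers 7 were called lower, and the summed intensity was 70706 to 110607 in WT and 35384 to 43725 in Zip13-KO. Of 7 stromal markers 2 (Pdgfra and Dpp4) were lower (157742 to 334486 against 145015 to 179827), 0 of 8 B and T cell markers were called by limma, 7 being lower at an unadjusted p under 0.05 (48666 to 58131 against 36931 to 40591), and 1 of 6 endothelial markers, Cdh5, was higher (9624 to 10819 against 11022 to 11762). Of 6 tested mammary epithelium markers 0 were called, 1 at an unadjusted p under 0.05 (215 to 481 against 230 to 575), and Csn2, Csn3, Wap and Elf5 were not well above background on any array. Of 6 tested skeletal muscle markers 0 were called, 0 also at an unadjusted p under 0.05 (1787 to 3987 against 2312 to 8060). WT replicate 1 was the highest WT array in the sums of the macrophage (110607 against 77472 and 70706), stromal (334486 against 218066 and 157742) and mammary markers (481 against 215 and 221). Slc39a13 itself read 11.29, 10.87 and 10.72 in WT and 6.76, 6.66 and 6.47 in Zip13-KO, a log2 fold change of -4.33 (SE 0.17, adjusted p = 0.00128), although it stayed well above background on all 6 arrays and the position of its 1 probe against the deleted exons is not known.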

How the data were processed

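Agilent SurePrint G3 Mouse arrays of iWAT RNA, extracted with Qiazol, were read from the scanner files that the authors deposited. Per the file headers, the authors made the processed intensity of each spot with Feature Extraction 11.5.1.1, background-subtracted, detrended and not normalized between arrays, with 62976 spots an array, none saturated. The authors also deposited a table of quantile-normalized log2 values, used here only as an alternative because its ranks follow the median spot signal. Here log2 processed intensity, without control and outlier spots, was averaged per probe and quantile normalized, as the study's methods state. Probes well above background on all 3 arrays of a genotype were kept, and the brightest probe with a RefSeq symbol stood for a gene. Genotypes were compared with limma 3.58.1 (R 4.3.3), Benjamini-Hochberg adjustment over all genes, at adjusted p under 0.05 and a log2 fold change over 0.58. The test was checked on simulated data. All 6 arrays are on 1 slide from 1 scan, and the number of arrays limits precision. Spots well above background were 62.5% to 63.2% on WT arrays and 58.8% to 60.4% on Zip13-KO arrays. The median processed signal before normalization was 39.2 to 40.6 in WT and 33.2 to 35.0 in Zip13-KO, so every Zip13-KO array was dimmer. What this does to the results was not tested beyond the alternatives named below. Pairs of related genes used exact permutation. Genes named are the 9, every gene of pathway lists of up to 8 and the 3 highest and lowest of longer ones, while cell type markers are given by list, with only some members named; some items of the cholesterol list are not reported here. The 9 genes and all lists were chosen with earlier results of these data known. The study combined a t-test with a median-ratio test and applied the fold threshold to median ratios; only the t-test was run here, as an alternative. Other alternatives were background correction, normalization, filter, probe choice, test, thresholds, replicate block, slide column and leaving out each array.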

Additional observations from a re-analysis of the deposited data

How the results depend on the processing

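All 9 lipogenic genes stayed above 0 under every alternative, no lipogenic gene was called lower, and no result reversed. The count of 8 genes called was 4 with no filter on dim probes, 1 with the methods' t-test, run without the median-ratio test that the study combined with it, after adjustment (7 unadjusted), 1 at an adjusted p under 0.01, 0 with the slide column as a term, and 4 relative to the adipocyte markers. Leaving out 1 array gave 1 to 8, where 961 to 1674 of all 15302 genes were called higher. Of all genes, 1576 of 15302 were called higher in the main fit and 1376 of 21365 with no filter on dim probes. The number was 1008 with that t-test after adjustment (1552 unadjusted), 707 at an adjusted p under 0.01 and 186 relative to the adipocyte markers. The median of the 9 genes, 1.31, ranged from 1.01 to 1.60 when 1 array was left out and was 0.70 relative to the adipocyte markers. The 13 member probes called became 6 with no filter on dim probes, and the share of all probes called in that fit is not given here. Of the other pathway genes, 29 called higher became 11 with that t-test alone after adjustment and 8 at an adjusted p under 0.01. Beyond 2-fold 16 were called, and with the slide column 0 (37 at an unadjusted p under 0.05, whose share of all genes is not given here). Relative to the adipocyte markers 7 were called, and 12 to 34 when 1 array was left out (12 without Zip13-KO replicate 1). Their 0 called lower became 1 (Srebf2) on the mean of the kept probes, 2 with no fold threshold and 11 relative to the adipocyte markers, and 0 to 1 when 1 array was left out. The causes were not tested. Acacb was called under all alternatives except the slide column, and Thrsp under none. Deviations from the genotype means correlated at r of -0.02, 0.04 and -0.08 for same-numbered arrays and at -0.17 to 0.18 for differently numbered ones. The same-numbered values lay within the range of the others and so gave no sign that the numbers pair samples. Such deviations sum to 0 over the 3 arrays of a genotype, so these correlations are not independent, and pairing is not excluded. In the fit with the replicate block 3 of the 9 genes and 20 pathway genes were called, and 1278 of all 15302 genes were called higher. With 3 arrays a genotype, and the column holding Zip13-KO replicates 2 and 3 holding no WT array, column and genotype are told apart by Zip13-KO replicate 1 alone.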
